A study of Mus musculus with 10 samples.

Results

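A set of 10 genes of the circadian clock was followed in the hippocampus of tau transgenic females given dihydrotestosterone (DHT). They are *Per1*, *Per2*, *Per3*, *Cry1*, *Cry2*, *Clock*, *Nr1d1*, *Nr1d2*, *Dbp* and *Tef*, taken by symbol from the count table, and all 10 had a row among its 56884 genes. Their identifiers there are, in the same order, ENSMUSG00000020893, ENSMUSG00000055866, ENSMUSG00000028957, ENSMUSG00000020038, ENSMUSG00000068742, ENSMUSG00000029238, ENSMUSG00000020889, ENSMUSG00000021775, ENSMUSG00000059824 and ENSMUSG00000022389. Each of the 10 passed the expression filter that left 17622 genes for testing. The samples were 10 ovary-intact P301S (PS19) females, which carry human mutant Tau driven by the mouse *Prnp* promoter, with 1 hippocampal library per mouse. From 6 months of age, 5 of them carried SILASTIC tubing filled with 10 mm of DHT, an androgen that aromatase cannot turn into estrogen, and 5 carried an empty (void) implant, for 12 weeks in each group. All were killed at 9 to 9.5 months of age. The study's methods place every kill in the same late-morning window under a regular light and dark cycle, so the libraries show 1 time of day and hold no measure of rhythm, phase or amplitude. The hour for each mouse and the hour of lights-on were not given in the sources used here. Mice were housed with others of their own treatment group, so cage and treatment cannot be told apart, and the library positions of all void mice come before those of all DHT mice. All 10 females shared the transgene, and no group without it was analysed here.

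The clock is a feedback loop of transcription that runs in nearly every cell. CLOCK pairs with BMAL1 (gene *Arntl*) and drives genes through E-boxes, among them the *Per* and *Cry* genes, whose proteins return to the nucleus and inhibit the pair. A second loop runs through the nuclear receptors REV-ERB alpha and beta (*Nr1d1*, *Nr1d2*), which repress *Arntl*, against the ROR receptors, which activate it. The output arm includes *Dbp*, *Tef* and *Hlf*, related transcription factors that bind D-boxes. In the hippocampus the loop is known for daily rhythms that bear on memory.

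The promoters of the members were searched for these elements, because the members' values are set beside each other gene by gene. RefSeq starts (GRCm38.p6) were used for 9 of the 10 members, with 13 starts in all, and *Per2* is named only. In the 250 bases before each start, the E-box CACGTG, a palindrome, was present in 3 of the 9 members, against 6.86% of all 27025 genes in the table. The D-box, TTATGTAA or TTACGTAA on either strand, was present in 1 of the 9, against 1.10% of all genes. The CRE (TGACGTCA, a palindrome) and the ROR element (RORE, both strands) were in 0 of the 9, against 1.77% and 0.396% of all genes. No match overlapped another. The windows with a match are shown in gene orientation, with the match in capitals and 40 bases on each side, to let the E-boxes of *Per1*, *Cry1* and *Tef* be compared with the D-boxes of *Per3*:
Per1, chr11:69098743-69098828, plus strand: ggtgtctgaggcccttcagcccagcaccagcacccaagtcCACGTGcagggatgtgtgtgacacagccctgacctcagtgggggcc
Cry1, chr10:85185069-85185154, minus strand: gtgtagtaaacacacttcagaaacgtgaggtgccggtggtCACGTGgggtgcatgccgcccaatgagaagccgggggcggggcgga
Tef, chr15:81802506-81802591, plus strand: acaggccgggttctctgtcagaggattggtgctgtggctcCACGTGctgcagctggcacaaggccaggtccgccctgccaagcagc
Per3, chr4:151044776-151044910, minus strand: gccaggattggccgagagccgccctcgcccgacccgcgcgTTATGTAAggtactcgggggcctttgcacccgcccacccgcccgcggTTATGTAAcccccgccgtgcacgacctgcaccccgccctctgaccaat
The E-box lay at -166 to -161 from the start of *Per1*, at -60 to -55 in *Cry1* and at -127 to -122 in *Tef*. The second start of *Tef* also had an E-box, at -138 to -133. The D-boxes of *Per3* lay at -205 to -198 and at -158 to -151, and both had the same letters, TTATGTAA. No such letters were found in this window of *Dbp*, *Nr1d1*, *Nr1d2*, *Cry2* or *Clock*, which says nothing of elements outside it.

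Levels of the members were well above the counting limit. The lowest raw count of any member in any library was 358 and the highest 14709, out of 27188854 to 47113661 total counts per mouse. In void-treated females, *Tef* had the highest level per length, at 38.9 ± 1.18 CPM per kb of exon (SD, n = 5; CPM, counts scaled to each library's total after TMM normalization, divided by the length of the merged exons). *Nr1d1* followed at 27.2 ± 3.90 CPM per kb, then *Nr1d2* at 22.8 ± 1.89 and *Cry2* at 19.8 ± 1.74. *Dbp* (13.98 ± 1.74), *Clock* (11.9 ± 0.865) and *Per1* (11.05 ± 2.80) formed the middle, and *Per2* (5.66 ± 0.948), *Cry1* (4.23 ± 0.314) and *Per3* (3.48 ± 0.409) the lower end. Along this order the ranges of the void mice overlapped between *Nr1d1* and *Nr1d2*, *Nr1d2* and *Cry2*, *Dbp* and *Clock*, *Clock* and *Per1*, and *Per2* and *Cry1*. They did not overlap between the other neighbours. All hippocampal subfield markers listed (8 of 8, among them *Prox1*) passed the filter, whereas 4 of 8 markers of the suprachiasmatic nucleus and hypothalamus (*Avp*, *Six6*, *Nms* and *Oxt*) did not. The other 4, *Vip*, *Prokr2*, *Rorb* and *Lhx1*, passed, and *Rorb* is also counted among the pathway genes below. Of the 56884 genes in the table, 17622 passed. Of 8 markers each of astrocytes, oligodendrocytes and endothelium, 1, 0 and 0 were called higher with DHT and 0 of each lower. Over all genes tested the shares were 5.22% higher and 0.261% lower. The log2 fold change (DHT against void) was positive in 6 of the 8 astrocyte markers (median 0.15) and in 8 of the 8 oligodendrocyte markers (median 0.19). It was positive in 2 of the 8 endothelial markers (median -0.030), and in 52.4% of all genes tested.

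The question put to the DHT comparison was whether the clock genes differed at this time of day. With DHT, 0 of the 10 members were higher and 0 were lower at an adjusted p under 0.05 (quasi-likelihood test of edgeR, Benjamini-Hochberg adjustment over all genes tested). Over all 17622 genes tested, 5.22% were higher and 0.261% lower by the same rule, 5.48% in either direction. With the added limit of 1 on the log2 fold change, 0 members were called, against 2.19% of all genes. At an unadjusted p under 0.05 there was 1 member, *Tef*, against 17.4% of all genes. DESeq2 called 1 member lower, again *Tef*, and 0 higher, where 1.16% of all genes it tested were lower and 6.12% higher. For each of the 10 members the void and DHT mice overlapped, whereas the groups did not overlap for 6.27% of all genes, 5.39% with DHT higher and 0.88% with DHT lower. The log2 fold change was positive in 4 members and negative in 6, with a median of -0.028, against a median of 0.0094 over all genes, of which 52.4% were positive. The fold changes (DHT against void) lay between -0.17 for *Tef* and 0.12 for *Dbp* on the log2 scale. In all 10 members the 95% interval of the log2 fold change lay within 1 of 0, and in 9 of them within 0.5, the exception being *Dbp*.

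**Figure D1:**
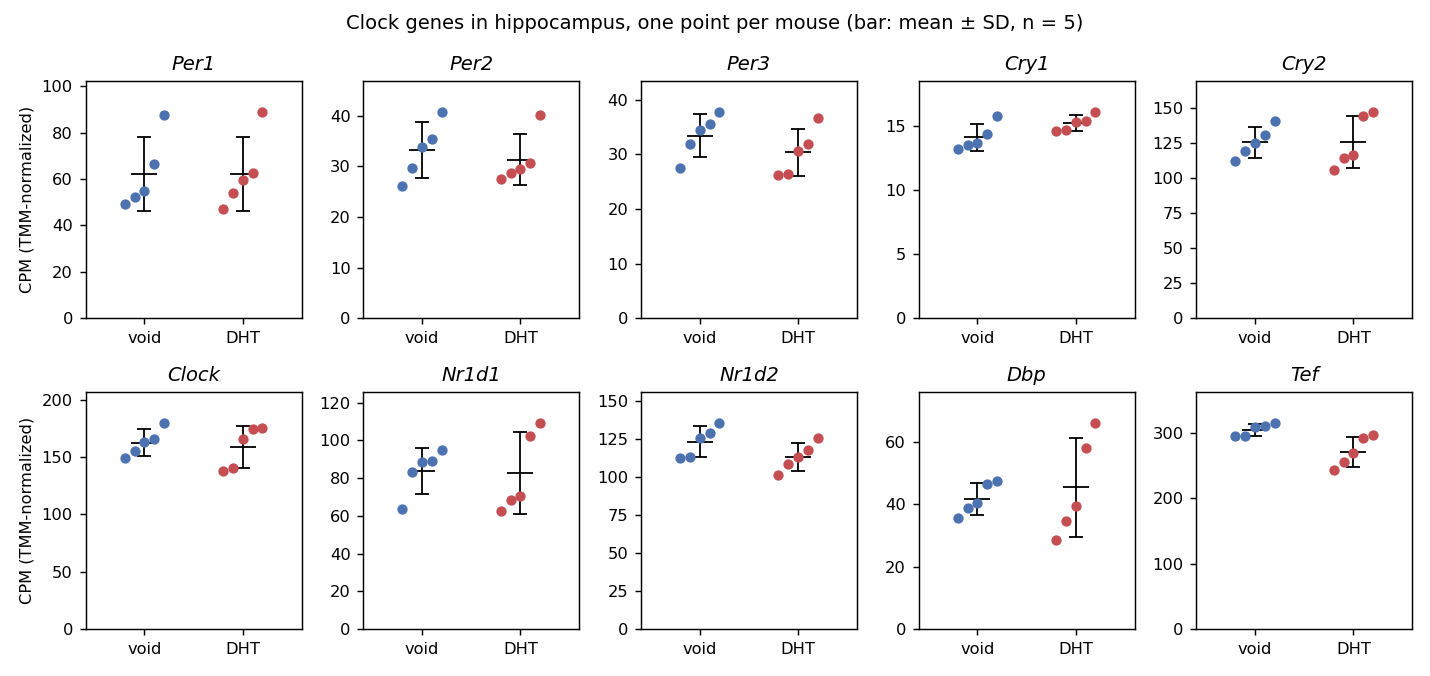
TMM-normalized CPM (vertical axes, from 0) of the 10 clock genes in void-treated (blue) and DHT-treated (red) females, 1 point per mouse, with the mean and SD of each group of 5. The groups overlap in every panel, and the DHT mice spread more widely than the void mice for *Dbp* and *Nr1d1*, for *Nr1d1* only before the GC trend was removed (SD of log2 values 0.202 and 0.203 after).

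Among the repressors, *Per1*, a *Per* gene that also answers to glucocorticoids and neuronal activity, had 54.8, 52.2, 49.5, 66.7 and 87.9 CPM in void mice 10, 11, 4, 5 and 9, and 47.05, 54.0, 59.5, 62.5 and 89.0 CPM in DHT mice 1, 2, 3, 5 and 6. In each group 1 mouse was above the others, void mouse 9 and DHT mouse 6, and the means were nearly the same. The gap was smaller once each library's trend on GC content, described further on, was removed. Void mouse 9 was then at 78.3 CPM and void mouse 5 at 71.6, DHT mouse 6 at 70.4 and DHT mouse 3 at 66.1. The log2 fold change of *Per1* was 0.0045 (95% interval -0.40 to 0.41, adjusted p = 0.996), and its sign turned under several scalings. *Per2* ranged from 26.2 to 40.7 CPM with void and from 27.6 to 40.1 with DHT, and the same 2 mice were the highest. Its log2 fold change was -0.085 (interval -0.36 to 0.19, adjusted p = 0.822). It lay between -0.19 (without DHT mouse 6) and -0.00019 (without void mouse 9) in the fits on 9 mice, and was -0.42 (unadjusted p = 0.0256, adjusted p = 0.633) with the choroid plexus markers as a covariate. That covariate, the mean log2 CPM of 12 markers, ran from 1.36 to 5.63 in void and from 6.03 to 6.74 in DHT mice. Because the groups do not overlap in it, no fit with this covariate can cleanly separate the markers from the treatment. *Per3*, the *Per* gene that is not needed for the rhythm itself, ranged from 27.5 to 37.8 CPM with void and from 26.2 to 36.7 with DHT, a log2 fold change of -0.14 (interval -0.38 to 0.095, adjusted p = 0.588).

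*Cry1* and *Cry2* encode the cryptochromes, the partners of the PER proteins in repression. *Cry1* averaged 14.1 ± 1.05 CPM in the 5 void mice and 15.2 ± 0.610 CPM in the 5 DHT mice (SD). The values ran from 13.21 to 15.82 CPM in void mice and from 14.59 to 16.11 CPM in DHT mice. Its log2 fold change was 0.11 (interval -0.048 to 0.26, adjusted p = 0.509). *Cry2*, with far more reads, was at 125 ± 11.01 CPM in void-treated and 125 ± 18.7 CPM in DHT-treated females, and its log2 fold change of 0.00046 had an interval of -0.22 to 0.22 (adjusted p = 0.999). DHT mice 5 and 6 were highest for *Cry2*, at 144 and 147 CPM, and the other 3 DHT mice lay between 106 and 116. The sign of *Cry2* also turned under other scalings.

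*Clock* encodes the activator that pairs with BMAL1. It averaged 163 ± 11.9 CPM with void and 159 ± 18.3 CPM with DHT, a log2 fold change of -0.035 (interval -0.21 to 0.14, adjusted p = 0.896). The values ran from 149 to 180.2 CPM in void mice and from 137.7 to 175.7 CPM in DHT mice. Here the order of the DHT mice was turned around as normalized, with DHT mice 5 and 6 lowest at 141 and 138 CPM and DHT mice 1, 2 and 3 between 166 and 176. With the GC trend removed it was not. DHT mouse 3 was then lowest at 151 CPM, with DHT mouse 5 at 152, DHT mouse 6 at 160, DHT mouse 2 at 165 and DHT mouse 1 at 169.

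*Nr1d1* was at 83.0, 88.5, 63.7, 94.9 and 88.9 CPM in void mice 10, 11, 4, 5 and 9, and at 68.4, 62.4, 70.5, 102 and 109 CPM in DHT mice 1, 2, 3, 5 and 6. DHT mice 5 and 6 were above all void mice, DHT mouse 2 was below them, and DHT mice 1 and 3 were within their range, with a log2 fold change of -0.021 (interval -0.37 to 0.33, adjusted p = 0.974). *Nr1d2*, which encodes the related REV-ERB beta, did not follow this order as normalized: DHT mouse 6, highest for *Nr1d1*, was lowest for *Nr1d2* at 102 CPM. Once each library's trend on GC content, described further on, was removed, DHT mouse 1 was lowest instead. It was then at 105 CPM, DHT mouse 6 at 113 and DHT mouse 5 highest at 124. Without that removal, *Nr1d2* ran from 112.4 to 136 CPM in void mice and from 101.8 to 125.8 CPM in DHT mice. Its group means were 123 ± 10.2 CPM with void and 113 ± 9.11 with DHT, with a log2 fold change of -0.12 (interval -0.28 to 0.037, adjusted p = 0.452). The annotation places 263 bases of *Nr1d1* exon opposite exons of *Thra*, a thyroid hormone receptor gene on the other strand. The strand setting of the counting was not given in the sources used here. *Thra* had a log2 fold change of 0.017 (SE 0.10, adjusted p = 0.964).

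*Dbp*, the clock output driven most directly by CLOCK and BMAL1, had the widest interval of the 10. It was at 38.9, 40.4, 35.5, 47.7 and 46.7 CPM in void mice 10, 11, 4, 5 and 9. In DHT mice 1, 2, 3, 5 and 6 it was at 34.8, 28.7, 39.4, 58.1 and 66.3 CPM. The DHT mice held both the lowest value and the 2 highest values of the 10. The mean was 41.8 ± 5.195 CPM with void and 45.5 ± 16.0 with DHT, and the log2 fold change was 0.12 (interval -0.32 to 0.56, adjusted p = 0.844). Without DHT mouse 6 it was -0.055, and without DHT mouse 5 it was -0.022. The coefficient of variation of *Dbp* was 12.4% in void and 35.2% in DHT mice, and that of *Nr1d1* 14.3% and 26.2%, a difference in spread that was not tested. For *Tef* it was 3.02% and 8.47%, for *Cry2* 8.78% and 14.9%, for *Clock* 7.30% and 11.5%, and for *Per3* 11.8% and 14.2%. For *Per1* it was alike (25.4% and 25.6%). With DHT it was lower for *Per2* (16.8% and 16.2%), *Nr1d2* (8.27% and 8.03%) and *Cry1* (7.42% and 4.01%). On the log2 scale the SD of *Nr1d1* was 0.224 in void and 0.369 in DHT mice, and 0.202 and 0.203 once each library's trend on GC content, described further on, was removed. That of *Dbp* was 0.179 and 0.506 before and 0.161 and 0.337 after. After the removal it was 0.0383 and 0.0696 for *Tef*, 0.0765 and 0.110 for *Cry2*, and 0.0747 and 0.0710 for *Clock*. *Dbp* shares 539 exon bases with *Sphk2* on the other strand, which had a log2 fold change of 0.12 (SE 0.13, adjusted p = 0.734).

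*Tef*, the thyrotroph embryonic factor, was the member nearest to a call. It was at 309, 295, 311, 297 and 316 CPM in void mice 10, 11, 4, 5 and 9 and at 256, 269, 244, 297 and 293 CPM in DHT mice 1, 2, 3, 5 and 6. Only DHT mouse 5 reached into the void range, where it was level with void mouse 5 and above void mouse 11. The log2 fold change was -0.17 (interval -0.30 to -0.035, a fold of 0.889), with an unadjusted p of 0.0178 and an adjusted p of 0.159. In the fits on 9 mice, the log2 fold change of *Tef* lay between -0.24 and -0.16 and the adjusted p between 0.0738 and 0.296. With DESeq2 it was -0.20 with an adjusted p of 0.0456. *Tef* overlaps 193 exon bases of *Gm17597*, which was near 0.5 CPM in both groups (0.474 with void, 0.538 with DHT). In bulk tissue, fewer cells of a type and less RNA per cell cannot be told apart, and the levels of cell type markers are therefore given here. Summed over 8 neuron markers, of which 6 had a negative log2 fold change (median -0.11) and 0 were called, the level was 6893 to 7588 CPM in void and 6160 to 6851 CPM in DHT mice. Summed over 10 microglia markers, all positive and 8 called higher, it was 448 to 538 CPM against 655 to 1005 CPM, and over 12 choroid plexus markers, all positive and 4 called higher, 112 to 1854 CPM against 2093 to 2959 CPM. The part of neurons and microglia in the value of *Tef* was not tested. In a fit with a covariate for the choroid plexus markers, *Tef* had a log2 fold change of -0.22 and an adjusted p of 0.724. That fit called 0 of all genes in either direction, and it cannot cleanly separate the markers from the treatment.

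The other genes of the pathway were taken from a list of 23, all of which passed the filter. Of these, 0 were called higher and 0 lower by edgeR at an adjusted p under 0.05, against 5.22% and 0.261% of all genes tested. An unadjusted p under 0.05 was found for 4 of the 23, near the share of 17.4% over all genes. DESeq2 called 1 lower and 0 higher, where 1.16% of all genes it tested were lower and 6.12% higher. The log2 fold change was negative in 17 and positive in 6, with a median of -0.029. Over all genes 52.4% were positive and the median was 0.0094. *Arntl*, the gene of BMAL1, averaged 37.6 ± 2.75 CPM with void and 37.3 ± 4.69 with DHT (log2 fold change -0.011, interval -0.21 to 0.19, adjusted p = 0.9748). *Npas2*, which can stand in for *Clock* in the forebrain, had a log2 fold change of -0.22 (interval -0.51 to 0.070, adjusted p = 0.459).

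*Hlf*, the third gene of the D-box family beside *Dbp* and *Tef*, was at 204, 252, 221, 261 and 194 CPM in void mice 10, 11, 4, 5 and 9 and at 188, 198, 181, 192 and 162 CPM in DHT mice 1, 2, 3, 5 and 6. Only DHT mouse 2 reached above the lowest void mouse. The log2 fold change was -0.30 (SE 0.089, unadjusted p = 0.00538, adjusted p = 0.0775), and DESeq2 gave -0.33 with an adjusted p of 0.0218. In the fit with the choroid plexus covariate, which cannot cleanly separate the markers from the treatment, the log2 fold change of *Hlf* was -0.026. In the edgeR fit without void mouse 9 and without the covariate it was -0.35 with an adjusted p of 0.0313. The neuron and microglia sums given beside *Tef* apply to *Hlf* as well, and their part was not tested.

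Among the regulators of *Arntl*, *Rorb* had a log2 fold change of -0.24 (SE 0.086, adjusted p = 0.148) and *Rora* of -0.10 (SE 0.11, adjusted p = 0.722). With the choroid plexus covariate, under the same limit as for *Hlf*, that of *Rorb* was -0.032. *Arntl2*, a paralogue of *Arntl*, averaged 6.06 CPM with void and 4.80 with DHT, a log2 fold change of -0.34 (SE 0.12, adjusted p = 0.148). *Arntl2* was chosen for mention after its values were seen. The repressors *Bhlhe40* (log2 fold change -0.024, adjusted p = 0.928) and *Bhlhe41* (0.13, adjusted p = 0.381), the D-box repressor *Nfil3* (-0.053, adjusted p = 0.918) and *Ciart* (-0.12, adjusted p = 0.876), which dampens CLOCK and BMAL1, did not pass, nor did the PER kinases *Csnk1d* (0.025, adjusted p = 0.908) and *Csnk1e* (-0.047, adjusted p = 0.798).

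**Figure D2:**
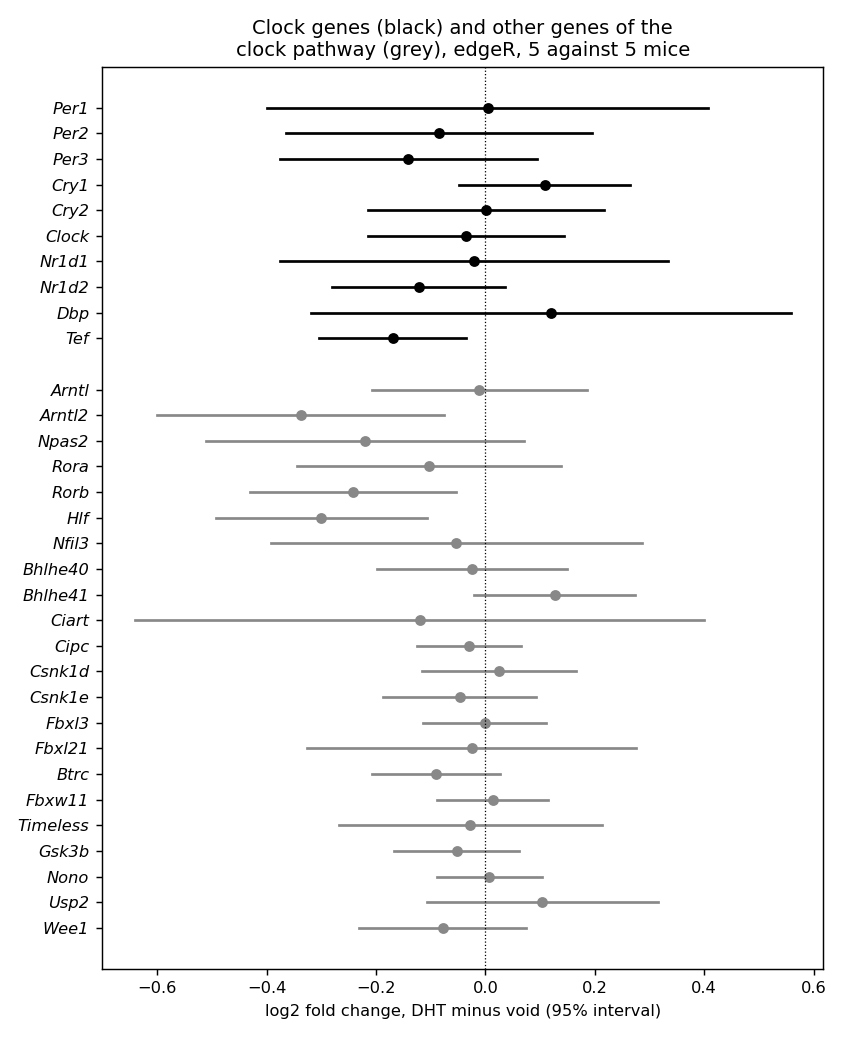
Log2 fold change (DHT minus void, horizontal axis) with its 95% interval from edgeR for the 10 clock genes (black) and other genes of the clock pathway (grey), 5 against 5 mice. Most intervals cross 0, and those of *Tef*, *Arntl2*, *Rorb* and *Hlf* do not.

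Signals that act on *Per1* and *Per2* from outside the loop were read from 2 further lists. Of 12 glucocorticoid response genes, 1 was called higher (*Cdkn1a*, log2 fold change 0.84, adjusted p = 0.00761, edgeR) and 0 lower. Over all genes tested, 5.22% were called higher and 0.261% lower. The median log2 fold change of the 12 was 0.057, against 0.0094 over all genes. *Fkbp5*, the co-chaperone of the glucocorticoid receptor, averaged 61.7 ± 10.4 CPM with void and 65.4 ± 3.94 CPM with DHT (adjusted p = 0.790). *Sgk1* had a log2 fold change of 0.30 (adjusted p = 0.351), *Tsc22d3* of -0.28 (adjusted p = 0.200), *Zbtb16* of -0.096 (adjusted p = 0.635) and *Klf9* of -0.0041 (adjusted p = 0.986). Of 10 immediate early genes, which neuronal activity switches on within minutes, 0 were called in either direction and 0 had an unadjusted p under 0.05. The shares over all genes were 5.48% and 17.4%. All 10 had a negative log2 fold change (median -0.34), where 52.4% of all genes tested were positive. They varied together between mice, with void mouse 11 the lowest void mouse for each, so the 10 signs are not independent. Summed over the 10, the level was 224 to 700 CPM in void and 272 to 524 CPM in DHT mice. *Fos*, *Arc* and *Egr1* had log2 fold changes of -0.38, -0.40 and -0.12 with standard errors of 0.51, 0.35 and 0.23.

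Within the groups, some members varied together from mouse to mouse. After each group's mean was removed from log2 CPM, the likeness of a pair of genes was measured as Pearson's r over the 10 mice, as a description. *Dbp* and *Nr1d1* had an r of 0.94 (Spearman's rho 0.96), *Cry2* and *Nr1d1* 0.87 and *Per1* and *Dbp* 0.75. *Clock* ran against them, with an r of -0.95 to both *Dbp* and *Nr1d1* and of -0.92 to *Cry2*. *Arntl* had an r of -0.84 to *Dbp*, and *Ciart* one of 0.94. Over the 45 pairs of members the median r was 0.22, with 7 pairs above 0.7 and 4 below -0.7.

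This pattern was not confined to clock genes. Of the 17621 other genes tested, 22.7% had an r to *Dbp* beyond 0.7 in either direction, and the middle 90% of all genes ran from -0.79 to 0.80. The 5 genes outside the members that were most like *Dbp* were *Relt*, *Gpx1*, *Eef2k*, *Ltk* and *Trmt1*, with r from 0.956 to 0.983, and the lowest were *Eapp*, an unnamed gene (ENSMUSG00000118521) and *Mgea5*, with r from -0.974 to -0.961. Of those 5 nearest genes, between 0 (without DHT mouse 2) and 4 stayed among the 5 nearest when 1 mouse was left out.

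The likeness followed the base composition of the transcripts. Across 17281 genes, which are not independent replicates, r to *Dbp* had a Spearman's rho of 0.745 with the GC content of the gene's transcripts and of -0.179 with exon length. The median r was -0.54 in the 4321 genes lowest in GC (27.5% to 45.4%) and 0.63 in the 4320 highest (54.5% to 75.5%). *Dbp*, *Nr1d1* and *Per1* have a GC content of 57.2%, 56.6% and 58.9%, and *Clock* one of 41.5%. The libraries differed in the same way: the slope of log2 expression on GC content was 0.32 per 10 percentage points in DHT mouse 6, 0.20 in DHT mouse 5 and 0.16 in void mouse 9, and between -0.16 and 0.020 in the other 7 mice. The mean slope was -0.033 ± 0.12 in void and 0.033 ± 0.21 in DHT mice (SD, 5 mice in each group), a difference below the spread between mice.

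The comparison was therefore repeated with each mouse's trend on GC content removed, a step chosen after these values were seen. The within-group SD of *Clock* on the log2 scale went from 0.141 to 0.0729, that of *Cry2* from 0.175 to 0.0947, and that of *Dbp* from 0.380 to 0.264. The share of genes with an r to *Dbp* beyond 0.7 went from 22.7% to 5.02%, and rho with GC content to 0.0033. *Ciart* then had an r of 0.94 to *Dbp*, at rank 2 of the 17621 genes, and *Nr1d1* one of 0.87, at rank 20. *Clock* and *Arntl* both stood at -0.66, where the middle 90% of genes ran from -0.64 to 0.61. *Per1* had an r of 0.43, *Per2* of -0.22 and *Tef* of -0.0059. *Nr1d2* changed sign, from an r to *Dbp* of -0.29 before to 0.56 after. Its r to *Nr1d1* went from -0.40 to 0.36. Over the 45 pairs of members, 1 pair was then above 0.7, *Dbp* with *Nr1d1*, and 1 below -0.7.

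**Figure D3:**
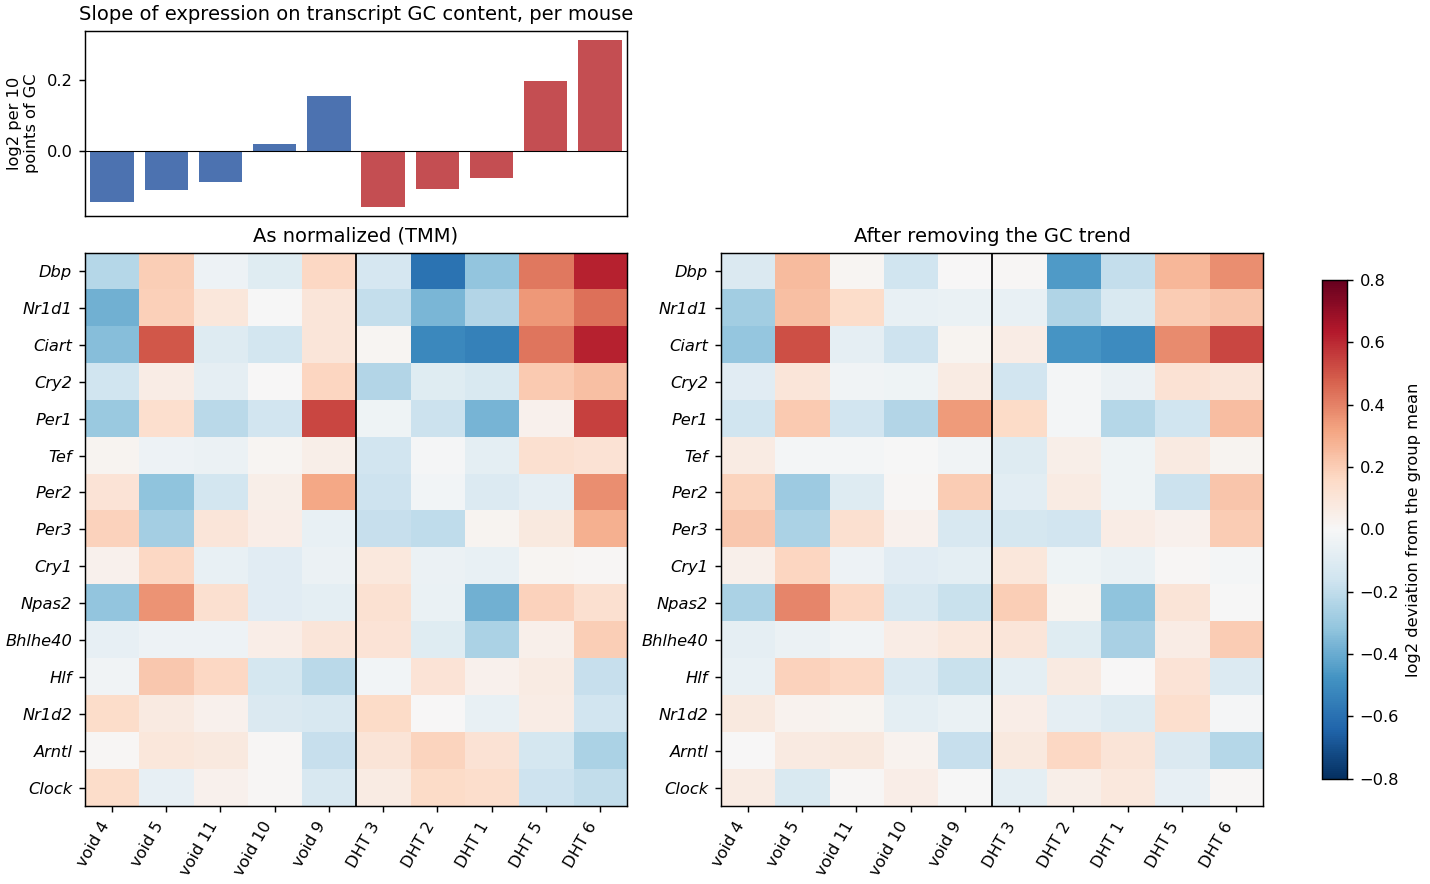
Bars at the top left give the slope of log2 expression on transcript GC content in each mouse (blue, void; red, DHT), and the heat maps give the log2 deviation of 15 clock genes from their group mean in the same mice, before (left) and after (right) the GC trend was removed. DHT mice 5 and 6 have the steepest slopes, at 0.20 and 0.32, and the deviations of *Clock* and *Cry2* fade after removal while those of *Dbp* and *Ciart* remain.

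**Figure D4:**
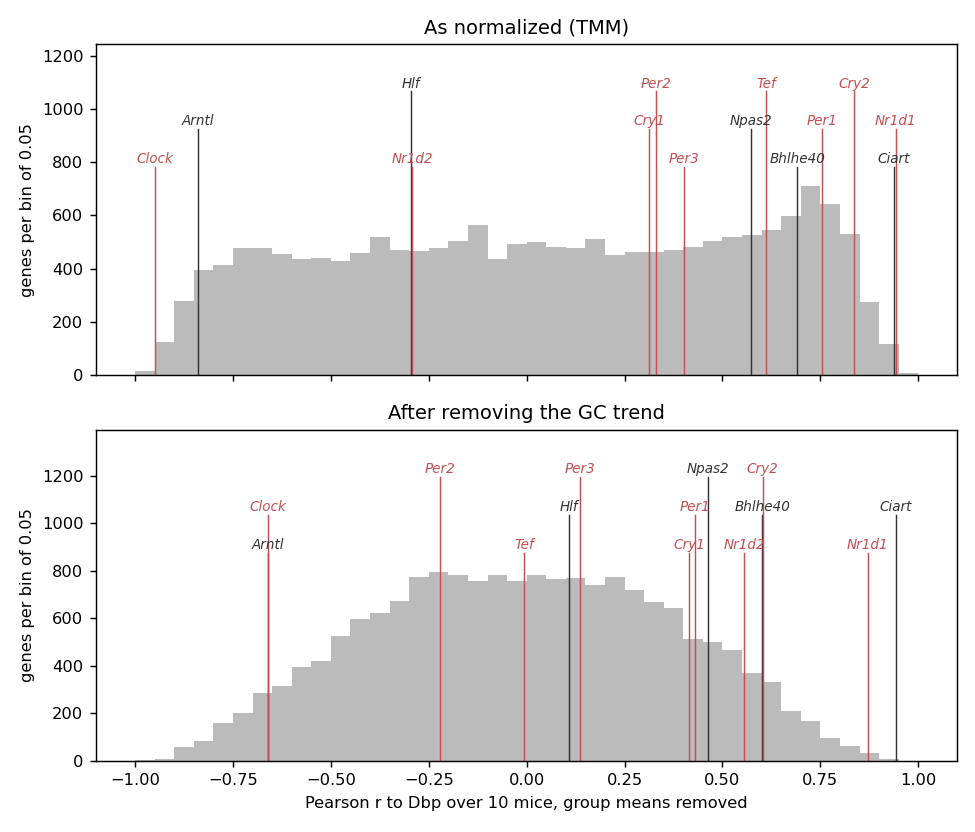
Number of genes (vertical axis) by Pearson's r to *Dbp* over 10 mice with group means removed (horizontal axis), before and after the GC trend was removed, with lines at the members (red) and at other clock genes (black). The distribution narrows after removal, and *Ciart* (0.94) and *Nr1d1* (0.87) then stand at its upper end.

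With the GC trend removed, *Tef* was called lower with DHT. Its log2 fold change was -0.21 (SE 0.042, adjusted p = 0.0113, edgeR), at 303 to 323 CPM in the void mice and 249 to 281 CPM in the DHT mice, which no longer overlapped. *Hlf* was called as well, with a log2 fold change of -0.30 (SE 0.075, adjusted p = 0.0287) and ranges of 198 to 256 and 170 to 197 CPM. Before the removal, the groups did not overlap, with DHT lower, for 0.88% of all genes. That share after the removal is not given here, so the lack of overlap has no background beside it. In that fit 1 of the 10 members and 1 of the 23 other pathway genes were lower and 0 of either were higher, where 1.80% of all genes tested were lower and 7.18% higher. The other 9 members again did not pass, with *Dbp* at a log2 fold change of 0.025 (SE 0.14, adjusted p = 0.939), *Nr1d1* at -0.10 (SE 0.11, adjusted p = 0.621), *Clock* at -0.0080 (SE 0.047, adjusted p = 0.942) and *Per3* at -0.18 (SE 0.095, adjusted p = 0.270). The part of the neuron, microglia and choroid plexus markers in these values of *Tef* and *Hlf* was not tested.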

How the data were processed

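Per the labels and the study's methods, total RNA from each hippocampus was made into an mRNA library and sequenced in pairs of reads. The authors cleaned the reads in HTStream and mapped them by STAR 2.7.10b, and the counts per gene were deposited raw. The methods name mm10 and the submitters' processing notes mm39 (GRCm39), so no coordinates are tied to the counts, and the annotation release and strand setting are not given in the sources used here. Groups were taken from sample titles. Symbols came from GENCODE M21 (51948 of 56884 identifiers), as did exon lengths, transcript GC content and exon overlaps. Total counts ranged from 27188854 to 47113661.

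Counts were fitted in R 4.3.3 with edgeR 4.0.16 (TMM, filterByExpr, quasi-likelihood test, Benjamini-Hochberg over 17622 genes). The call rule was an adjusted p under 0.05 without a fold limit, and the log2 fold change limit of 1 that the study used was an alternative. A standard error is the size of the log2 fold change over the square root of F, and intervals are 95%. DESeq2 1.42.0 (also the authors' tool) was an alternative, with other scalings and filters, a choroid plexus covariate (mean log2 CPM of 12 markers) and each mouse left out. Log2 CPM used a prior count of 2. The GC trend was a lowess fit per mouse of deviations from the gene mean on GC content, entered as an offset, and was added after the data were examined. Simulated data were used to test the scripts. Promoter sequences are RefSeq's (GRCm38.p6). The members and lists were chosen with earlier results of these data known. In the pathway list, 1 gene that enters the counts is not reported here. Named genes were the 10 members, fixed members of the other lists, any called gene of the pathway list, the 5 genes most and 3 least like *Dbp*, and tested genes whose exons overlap a member's.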

Additional observations from a re-analysis of the deposited data

Results flagged for a closer look

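Each group of 5 mice was examined for the 10 clock genes and 11 other named genes of the pathway, 42 groups in all, for a single mouse far from the rest. In 2 of them the gap to the nearest mouse exceeded 0.71 of the group's range, where chance gives about 2.1. Both ratios are for values before the GC trend was removed. *Per2* in DHT-treated females had a ratio of 0.762, because DHT mouse 6, at 40.1 CPM, was above the others. With the GC trend removed the gap was smaller, with DHT mouse 6 at 35.5 CPM and DHT mouse 2 next at 31.9. *Bhlhe41* in DHT-treated females had a ratio of 0.816, because DHT mouse 2, at 47.3 CPM, was below the others.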

How the results depend on the processing

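No paired analysis was possible, because the labels name no pairs. The number 5 is the sole replicate number that void and DHT have in common, and it is not said to mark a pair. The study's methods state that littermates were randomized to treatment, but the litter of each mouse is not given in the sources used here. Depth limits the lowest member most, *Cry1*, with 358 to 769 raw counts per library. Leaving out 1 mouse gave 0 members higher and 0 lower in each of 10 fits, and between 0 and 2 other pathway genes lower, the 2 being *Hlf* and *Arntl2* (adjusted p = 0.0481) without void mouse 9. DESeq2 called 1 member and 1 other pathway gene lower, as did the fit with the GC trend removed, whereas the other scalings, filters and the fold limit called 0. *Tef* passed with DESeq2 (-0.20) and with the GC trend removed (-0.21). Of 80 values of the members under DESeq2, the other scalings and filters, the choroid plexus covariate and the GC fit, 65 kept sign and call. The fits with 1 mouse left out are not in that tally, and their sign changes are given below.

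The calls over all genes, 920 higher and 46 lower, ranged from 351 to 1072 and from 5 to 77 with 1 mouse left out. They were 382 and 4 with the fold limit and 0 and 0 with the choroid plexus covariate, while DESeq2 gave 233 and the GC fit 318 lower genes. The covariate does not overlap between void and DHT mice, so its fit cannot cleanly separate the markers from the treatment. Several signs reversed. *Per1* was at -0.023 with DESeq2, -0.024 with its size factors, -0.017 with upper quartile factors, -0.0088 without a filter, -0.22 with the choroid plexus covariate and -0.066 with the GC trend removed. In the same order *Cry2* was at -0.027, -0.027, -0.023, -0.013, -0.038 and -0.053. With the covariate, *Nr1d1* was at 0.15, *Arntl* at 0.13, *Npas2* at 0.14, *Rora* at 0.21, *Ciart* at 0.13 and *Csnk1d* at -0.083, and without a change of sign *Per2* was at -0.42, *Per3* at -0.21, *Cry1* at 0.17, *Nr1d2* at -0.047, *Rorb* at -0.032 and *Hlf* at -0.026. *Arntl* was at 0.00068 with library size alone, and *Csnk1d* at -0.0033 with DESeq2, -0.0030 with its size factors and -0.015 with the GC trend removed. The median log2 fold change over all genes also moved with the scaling. It was 0.0094 in the main fit, -0.016 with DESeq2, -0.018 with its size factors, -0.012 with upper quartile factors and 0.019 with library size alone. The cause of the sign changes was not tested. With 1 mouse left out, *Per1* ranged from -0.16 to 0.16, *Cry2* from -0.090 to 0.045, *Clock* from -0.11 to 0.012, *Nr1d1* from -0.15 to 0.065, *Dbp* from -0.055 to 0.25, *Arntl* from -0.072 to 0.048, *Rora* from -0.19 to 0.00078, *Nfil3* from -0.18 to 0.012, *Bhlhe40* from -0.077 to 0.0013, *Ciart* from -0.29 to 0.025 and *Csnk1d* from -0.030 to 0.055. Of the 5 genes most like *Dbp*, 2 remained with Spearman's rho and 0 with the GC trend removed.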

Other observations

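The difference between the output arm and its activator was read within each mouse as log2 CPM of *Dbp* minus that of *Arntl*. It was 0.044, 0.031, -0.089, 0.26 and 0.50 in void mice 10, 11, 4, 5 and 9 and -0.20, -0.54, -0.013, 0.79 and 1.09 in DHT mice 1, 2, 3, 5 and 6. The DHT mice spanned a wider range than the void mice at both ends, with a mean of 0.23 ± 0.69 against 0.15 ± 0.23 (SD, n = 5 each). For *Per2* minus *Arntl* the spread was alike in the groups, with -0.26 ± 0.37 in DHT and -0.19 ± 0.34 in void mice. These differences are given without a test, and they carry the GC slopes of the libraries, which were steepest in DHT mice 5 and 6.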
